A study of Rattus norvegicus with 74 samples.

Results

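This report covers the arms of miR-126, miR-221 and miR-222, microRNAs known from the endothelium, in whole kidney of untreated F344 rats, an inbred strain. Members were taken by name, as every miRNA on the array whose name begins rno-miR-126, rno-miR-221 or rno-miR-222, and kept where the scanner software detected them on any array. Of 7 such arms with probes, 4 were detected: rno-miR-126a-3p, rno-miR-126a-5p, rno-miR-221-3p and rno-miR-222-3p. They are 4 of the 311 miRNAs detected on any array, out of 677 with probes. The arms miR-126b, miR-221-5p and miR-222-5p were detected on 0 of 74 arrays. The 2 arms of miR-126a and miR-221-3p were detected on all 74 arrays, and miR-222-3p on 68.

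The study followed kidney miRNA over the life span in both sexes. Rats were killed, with no treatment, at 8 ages (2, 5, 6 or 8 weeks in the younger set and 15, 21, 78 or 104 weeks in the older), and each array held RNA from the ground kidney of 1 animal. There were 4 arrays from females at 2, 5, 8 and 21 weeks and 5 at 6, 15, 78 and 104 weeks. There were 4 arrays from males at 8 and 104 weeks and 5 at each of the other ages, for 36 female and 38 male arrays in all. The stage of the estrous cycle was not controlled in females. A whole kidney mixes tubules, vessels, glomeruli and blood cells, so in these data fewer cells of a type and less of a miRNA in each cell cannot be told apart. Of the 8 arms on a list of tubule miRNAs (miR-192, miR-194, miR-204 and miR-30a), 7 were detected (all but miR-204-3p). Of 8 arms of striated muscle miRNAs 2 were detected, miR-133b-3p on 74 arrays and miR-206-3p on 17, while miR-1 and miR-133a were detected on 0. Each array was put in its group by the sample its scanner file belongs to. The series also holds a value table with 1 column per sample, and 69 of its 74 columns held the values of another sample's scanner file, which would put 66 arrays in another group. By the scanner files no slide held more than 1 array of a group, whereas the value table's naming gives 5 pairs of slide and group that did. Every comparison of groups rests on the scanner files' labels, and results under the other naming were not computed.

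A microRNA is a short RNA cut from a hairpin transcript. Its seed, the bases near the 5′ end, pairs with target mRNAs and lowers their translation or stability, and either arm of the hairpin can be kept. miR-126 lies inside Egfl7, a gene of endothelial cells, and is known for sustaining vascular growth signalling by repressing Spred1 and Pik3r2, which restrain the signals of vascular endothelial growth factor. miR-221 and miR-222 come from 1 short stretch of the X chromosome, are known to repress the stem cell factor receptor Kit and the cell cycle inhibitor Cdkn1b, and act in endothelium and in vascular smooth muscle.

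All 7 arms had a mature sequence in the RefSeq tables for the rat build GRCr8. They are shown because their seeds and positions say which members could share targets or signal; bases 2 to 8 (the seed) are in capitals, each read 5′ to 3′.
rno-miR-126a-3p: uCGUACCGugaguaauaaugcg
rno-miR-126a-5p: cAUUAUUAcuuuugguacgcg
rno-miR-126b: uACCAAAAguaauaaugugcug
rno-miR-221-3p: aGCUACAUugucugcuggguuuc
rno-miR-222-3p: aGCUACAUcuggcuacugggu
rno-miR-221-5p: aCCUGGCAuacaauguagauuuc
rno-miR-222-5p: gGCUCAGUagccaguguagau

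miR-126a-3p lies at chr3:29813219-29813240 and miR-126a-5p at chr3:29813182-29813202, both on the plus strand, inside the span of Egfl7 (chr3:29802481-29814966). miR-126b lies on the minus strand at chr3:29813177-29813198 and overlaps miR-126a-5p over 17 bases, where the 2 sequences are reverse complements. On the plus strand of X, miR-222-5p lies at chrX:6022642-6022662, miR-222-3p at chrX:6022682-6022702, miR-221-5p at chrX:6023206-6023228 and miR-221-3p at chrX:6023246-6023268. The hairpins Mir222 (chrX:6022621-6022723) and Mir221 (chrX:6023182-6023290) are separated by 458 bases and both lie inside the span of the long noncoding RNA genes LOC120099382 and LOC120099384. miR-221-3p and miR-222-3p share their first 8 bases, seed included, and match at 11 of 21 positions counted from the 5′ end. No other miRNA on the array with a RefSeq sequence (615 of 677) had that seed, and none had the seed of miR-126a-3p, miR-126a-5p or any of the 3 undetected arms.

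Values below are normalized intensities, the total gene signal of a miRNA divided by the 75th percentile of the 311 expressed miRNAs on the same array, so 1 is the signal at that percentile. Differences are on the log2 scale, from 1 limma fit over all 16 groups, with a floor of 0.0171 for undetected miRNAs. A miRNA passed the test at an adjusted p below 0.05 (Benjamini-Hochberg over 311 miRNAs) and was called where the fold was also at least 1.5, the threshold of the study's methods. Intensities depend on each probe's binding, so levels were compared between groups and never between miRNAs. On each array the mean spot signal of miR-126a-3p was 22.0 to 174 times the local background (median 72.6), that of miR-221-3p 2.53 to 10.8 times (median 5.74) and that of miR-126a-5p 1.98 to 6.19 times (median 3.34). miR-222-3p was near the limit, at 1.40 to 2.72 times (median 1.74), against medians of 1.40 to 1.43 for the 3 arms that were not detected.

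**Figure D1:**
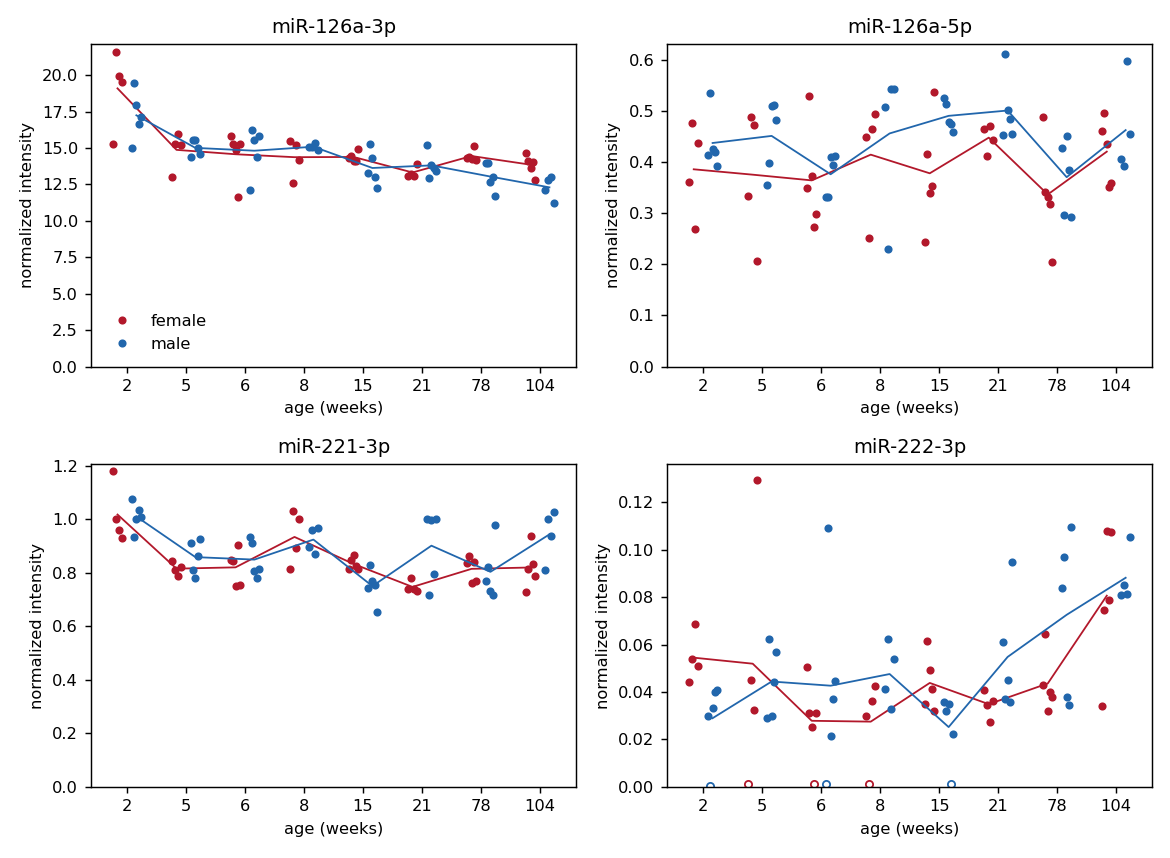
Normalized intensity (y axis) of the 4 detected members at each age (x axis, weeks, evenly spaced) in females (red) and males (blue). Each point is 1 array, lines join the group means, and open circles are the 6 arrays on which miR-222-3p was not detected. miR-126a-3p and miR-221-3p were highest at 2 weeks, and miR-222-3p was highest at 104 weeks.

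miR-126a-3p, the guide arm of the endothelial hairpin, was highest at 2 weeks. The difference from 8 to 104 weeks was -0.05 in females and -0.30 in males, against -0.40 and -0.19 from 2 to 8 weeks. In 2-week females the 4 arrays read 15.3, 19.6, 19.9 and 21.6, and in 2-week males the 5 arrays read 15.0, 16.7, 17.1, 18.0 and 19.5. At 8 weeks the 4 female arrays read 12.6, 14.2, 15.2 and 15.5, and the 4 male arrays 14.9, 15.1, 15.1 and 15.4. In each sex the lowest 2-week array, which in both cases was on slide 1, lay within the 8-week range, and all other 2-week arrays lay above it.

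From 2 to 8 weeks miR-126a-3p fell by 0.40 on the log2 scale in females (SE 0.0819, 1.32-fold, adjusted p = 4.19e-05), and by 0.19 in males (SE 0.0777, 1.14-fold, adjusted p = 0.0432). It was the 1 member of 4 to pass in each sex, and it was not called in either. Over all miRNAs 31.8% passed in females and 45% in males. On 3 of 3 slides that held both ages, females were lower at 8 weeks, and males were lower on 3 of 4. The male value lost the test when any of 7 of the 9 arrays compared was left out (range -0.24 to -0.14). With the 75th percentile taken over all 677 miRNAs of the array, the differences were -0.27 in females (adjusted p = 0.176) and -0.10 in males (adjusted p = 0.703).

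Over the 8 ages the group means of miR-126a-3p in females were 19.1 ± 2.71 (SD, n = 4) at 2 weeks, 14.9 ± 1.29 at 5 weeks, 14.6 ± 1.68 at 6 weeks and 14.4 ± 1.29 at 8 weeks. They were 14.4 ± 0.337 at 15 weeks, 13.3 ± 0.403 at 21 weeks, 14.5 ± 0.405 at 78 weeks and 13.9 ± 0.686 at 104 weeks. In males they were 17.2 ± 1.64 (n = 5), 15.0 ± 0.525, 14.8 ± 1.66, 15.1 ± 0.199, 13.6 ± 1.18, 13.8 ± 0.868, 13.04 ± 0.957 and 12.3 ± 0.816, in the same order of ages. In females the 21-week arrays lay below every 15-week and every 78-week array, and all other neighbouring ages overlapped. In males every pair of neighbouring ages overlapped. In the age test within each sex, miR-126a-3p passed in females (adjusted p = 0.000372) and in males (adjusted p = 2.29e-05), with no pair of ages past a 1.5-fold difference. The widest pairs were 2 against 21 weeks in females, at 1.42-fold, and 2 against 104 weeks in males, at 1.40-fold. With the 75th percentile over all 677 miRNAs neither sex passed (adjusted p = 0.140 in females and 0.714 in males).

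In that age test 2 of the 4 members passed in females, where 49.8% of all miRNAs passed, and 3 of 4 in males, where 58.8% did. With a pair of ages past a fold of 1.5 as well, 0 members were called in females (36.7% of all miRNAs were) and 1 in males, miR-222-3p (45.3% of all). Over all 16 groups the largest distance between group means of miR-126a-3p was 0.63 on the log2 scale and that of miR-221-3p 0.44, against a median of 0.99 over the 166 miRNAs detected on all arrays. Of those, 8.43% had a smaller range than miR-221-3p and 27.7% a smaller range than miR-126a-3p. miR-221-3p was itself the percentile used for scaling on 6 of 74 arrays, and how far this narrows its range was not tested.

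The male minus female difference in miR-126a-3p was -0.14 at 2 weeks (95% interval -0.30 to 0.02, adjusted p = 0.295). From 5 to 21 weeks its values lay from -0.08 to 0.07, and each of those 95% intervals lay within -0.23 and 0.24. At 78 weeks the 5 male arrays read 11.7, 12.6, 12.99, 13.9 and 14.0 and the 5 female arrays 14.2, 14.2, 14.3, 14.4 and 15.2, with no overlap. At 104 weeks the 4 male arrays read 11.2, 12.1, 12.8 and 13.01 and the 5 female arrays 12.8, 13.6, 14.0, 14.1 and 14.7, which overlapped. The differences were -0.15 at 78 weeks (95% interval -0.30 to -0.0042, adjusted p = 0.137) and -0.17 at 104 weeks (-0.33 to -0.02, adjusted p = 0.111), and neither passed.

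Arrays share glass slides, and miR-126a-3p varied more with the slide than most miRNAs did. Slide accounted for 63.3% of its variance within groups (adjusted p = 1.81e-06), against a median of 24.5% over all miRNAs. It accounted for 40.6% for miR-126a-5p, 30.6% for miR-221-3p and 27.3% for miR-222-3p. Each slide was scanned on 1 day, and scan day alone accounted for 58.6% of the variance of miR-126a-3p (adjusted p = 8.74e-09), against a median of 11.9% over all miRNAs. It accounted for 31.0% for miR-126a-5p, 21.2% for miR-221-3p and 17.5% for miR-222-3p. Slide 1 was the 1 slide of its scan day, so slide and day cannot be told apart there. On slide 1, which held ages of 2 to 8 weeks, miR-126a-3p averaged 0.19 below its group means (-0.19), miR-126a-5p -0.34 and miR-222-3p -0.55, while miR-221-3p averaged 0.12 above. Slides held about 1 animal of each sex at each of their ages, so the sexes can be compared within a slide. The deviation of each slide is plotted for the 4 members.

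**Figure D2:**
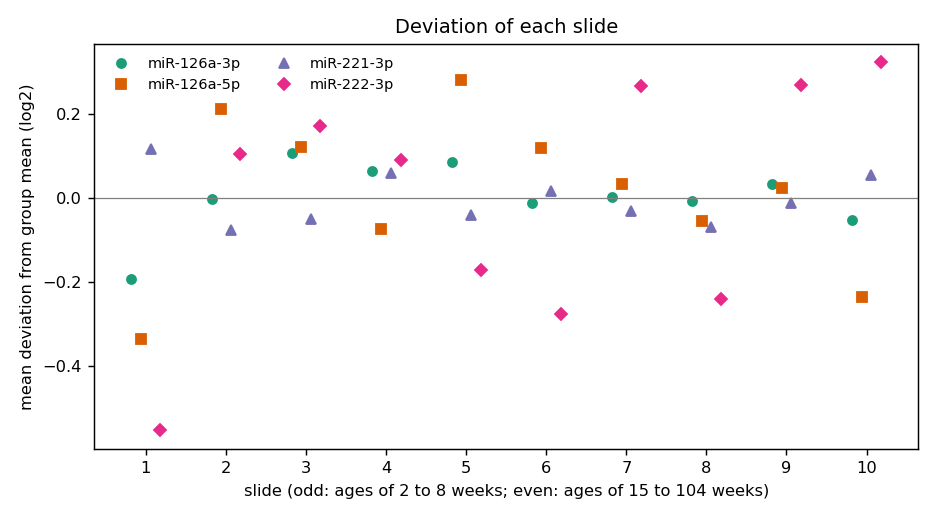
Mean deviation of a slide's arrays from their group means (y axis, log2) for each of the 10 slides (x axis); symbols are the 4 members, and each slide held 7 or 8 arrays, with 1 array of 15 weeks on slide 5. Slide 1 was the lowest for 3 members and the highest for miR-221-3p.

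Within slides, males read below females in miR-126a-3p on 4 of 4 slides at 2 weeks, 5 of 5 at 78 weeks and 4 of 4 at 104 weeks. In the fit that added slide as a fixed term, the differences passed at 2 weeks (-0.17, adjusted p = 0.024), 78 weeks (-0.15, adjusted p = 0.016) and 104 weeks (-0.17, adjusted p = 0.00894). The age by sex interaction then passed too (adjusted p = 0.00534), as did the fall from 15 to 104 weeks in males (-0.15, adjusted p = 0.0257). These differences are small, and those at old age depended on the scaling. At 104 weeks the value was 0.02 with the 75th percentile over miRNAs detected on all arrays, 0.10 after quantile normalization and 0.07 after normexp background correction, and none of these passed. At 78 weeks the same settings gave -0.04, 0.09 and 0.07, and for the male change from 15 to 104 weeks they gave 0.03, -0.02 and -0.01. At 2 weeks they gave -0.30, which passed (adjusted p = 0.0288), -0.14 and -0.08. With slide as a fixed term, calls over all 311 miRNAs, which also need the 1.5-fold difference, rose as well. They went from 21 to 29 at 78 weeks and from 19 to 24 at 104 weeks, and were 12 at 2 weeks in both fits. The share of all miRNAs passing with slide as a fixed term was not counted.

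Both probes of miR-126a-3p gave the same sign in 12 of 12 comparisons between groups (8 of sex and 4 of age), with a largest gap of 0.11 on the log2 scale. Over 228 miRNAs detected on at least 50% of arrays, the patterns most like that of miR-126a-3p across the 16 group means were those of miR-196b-5p (Pearson r = 0.95), miR-324-5p (0.94), miR-181d-5p (0.94) and miR-181c-5p (0.92). The least like were miR-7a-5p (-0.89) and miR-29a-3p (-0.88). All these points come from the same 74 arrays and share their scaling.

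miR-126a-5p, the other arm of the same hairpin, was not shown to change as its partner did, and the changes of the 2 arms were not compared by a test. The 95% intervals of miR-126a-5p from 2 to 8 weeks were wide, at -0.38 to 0.56 in females and -0.46 to 0.44 in males. Its group means ran from 0.336 ± 0.101 (n = 5) in 78-week females to 0.500 ± 0.0646 (n = 5) in 21-week males. It passed in 0 of the comparisons of sex or age, although with slide as a fixed block it passed the age test in males (adjusted p = 0.0495). Its r with miR-126a-3p over the 16 group means was -0.23. The nearest to a sex difference was at 15 weeks. There the male arrays read 0.459, 0.473, 0.479, 0.514 and 0.525 and the female arrays 0.244, 0.339, 0.353, 0.416 and 0.536, so that 1 female array lay above all the males; that array was the only one of its age on a slide of younger animals. The difference was 0.42 (SE 0.211, adjusted p = 0.247), and within slides males were higher on 4 of 4 (blocked value 0.53, adjusted p = 0.0556). In all 8 ages the male mean of miR-126a-5p was the higher, by 0.08 to 0.42, each with a 95% interval that held 0.

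The spread of miR-126a-5p between animals of a group was wide, with a within-group SD of 0.34 on the log2 scale against 0.12 for miR-126a-3p. The log2 ratio of the 2 arms on an array, examined after their values were seen and given as a description, ranged from 4.40 to 6.21. It averaged 5.65 ± 0.376 (n = 4) in 2-week females, 5.31 ± 0.123 (n = 5) in 2-week males, 5.06 ± 0.188 (n = 5) in 104-week females and 4.75 ± 0.264 (n = 4) in 104-week males. The patterns most like miR-126a-5p were those of miR-133b-3p (r = 0.60), miR-505-3p (0.59), miR-204-5p (0.56) and miR-674-3p (0.51), and the least like those of miR-202-3p (-0.77) and miR-878 (-0.67).

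miR-221-3p was also highest at 2 weeks. Its signal was itself the array's 75th percentile on 6 of 74 arrays, where its value is 1 by construction, so it lies close to the quantity by which it is scaled. The 2-week female arrays read 0.932, 0.961, 1 and 1.18 and the 2-week male arrays 0.935, 1, 1.01, 1.04 and 1.08. Of these 9 arrays 8 lay above every array of both sexes at 5 and 6 weeks, and the lowest, a female, read just under the highest 6-week male array (0.934). The means at 8 weeks were again above those at 5 and 6 weeks. The means in females were 1.02 ± 0.112 (n = 4) at 2 weeks, 0.816 ± 0.0226 at 5 weeks, 0.821 ± 0.067 at 6 weeks, 0.935 ± 0.101 at 8 weeks and 0.834 ± 0.0228 at 15 weeks. They were 0.748 ± 0.0219 at 21 weeks, 0.815 ± 0.045 at 78 weeks and 0.820 ± 0.0769 at 104 weeks. In males the means were 1.01 ± 0.052 (n = 5), 0.859 ± 0.0632, 0.850 ± 0.0691, 0.925 ± 0.0471, 0.751 ± 0.0629, 0.902 ± 0.136, 0.804 ± 0.106 and 0.944 ± 0.0962. The age test passed in females (adjusted p = 0.000288) and in males (adjusted p = 0.00295), again with no pair of ages 1.5-fold apart: the widest pairs were 2 against 21 weeks in females (1.36-fold) and 2 against 15 weeks in males (1.35-fold). With the 75th percentile over all 677 miRNAs neither sex passed (adjusted p = 0.319 and 0.223). From 2 to 8 weeks it did not pass in either sex, with -0.12 in females (adjusted p = 0.317) and -0.13 in males (adjusted p = 0.228). It did pass in females with the 75th percentile over miRNAs detected on all arrays (-0.29, adjusted p = 0.0283). In males it passed after quantile normalization (-0.26, adjusted p = 0.0060).

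**Figure D3:**
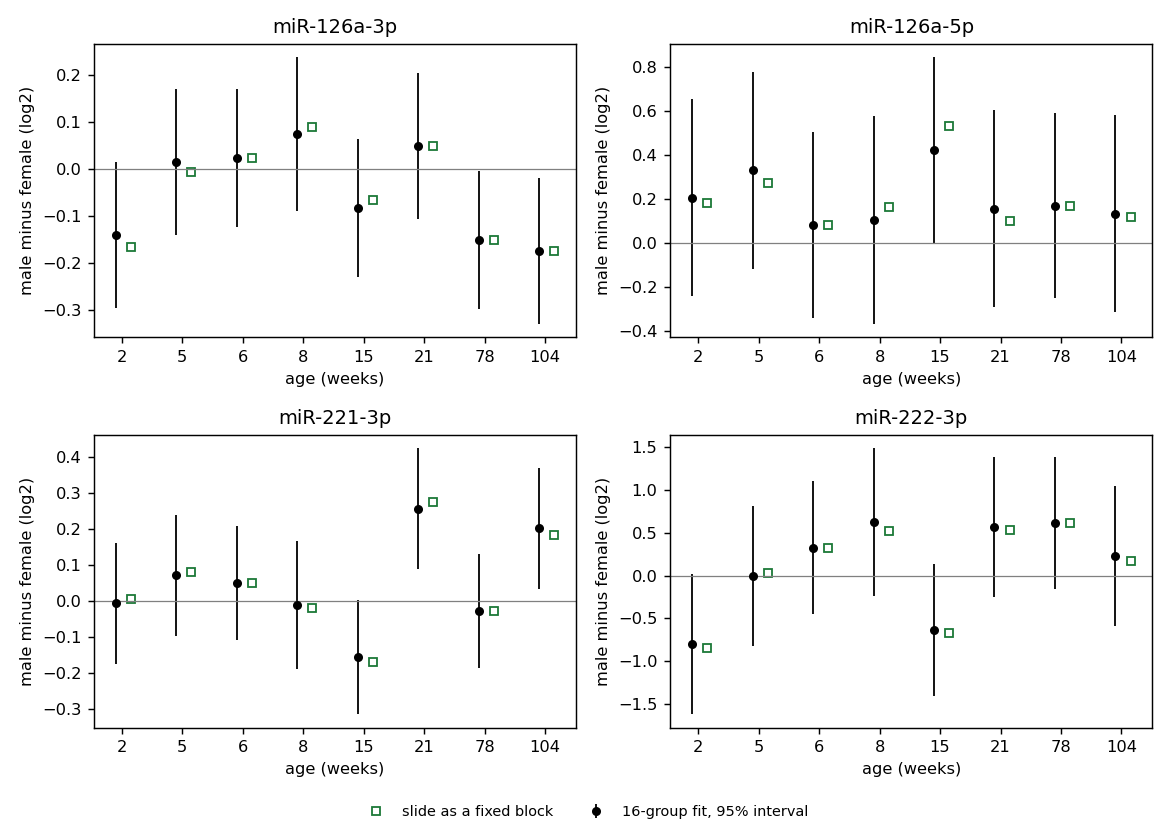
Male minus female difference (y axis, log2) of each member at each age (x axis, weeks). Black points are the fit over 16 groups with 95% intervals and open green squares the fit with slide as a fixed block; y axes differ between panels. Of the 32 black points, miR-221-3p at 21 weeks passed the test.

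Between the sexes 1 of the 32 member tests passed: miR-221-3p at 21 weeks, where 10.3% of all miRNAs passed. The 5 male arrays read 0.717, 0.796, 0.997, 1 and 1 and the 4 female arrays 0.734, 0.738, 0.738 and 0.780, so 4 males lay above all females and 1 below. The difference was 0.26 (SE 0.0842, 1.195-fold, adjusted p = 0.0361), and males were higher on 4 of 4 slides. Leaving out any of 6 of the 9 arrays took the adjusted p above the threshold, with the difference between 0.22 and 0.34. With the 75th percentile over miRNAs detected on all arrays it was 0.09 (adjusted p = 0.85). At the other ages 0 of 4 members passed, against 10.9% of all miRNAs at 2 weeks, 0% at 5 weeks, 0.322% at 6 weeks, 1.93% at 8 weeks, 8.04% at 15 weeks and 20.3% at both 78 and 104 weeks. At an unadjusted p below 0.05 there were 4 of 32, the other 3 being miR-126a-3p at 78 and 104 weeks and miR-221-3p at 104 weeks. The share of all miRNAs at that level was not counted. The methods' t-test, after Benjamini-Hochberg, passed 0 of 32.

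From 15 to 104 weeks miR-221-3p rose in males, from the lowest mean of any male age. The male means at 15, 21, 78 and 104 weeks were 0.751, 0.902, 0.804 and 0.944, so the course was not a steady rise. With ages of 15 to 104 weeks alone, the age test in males did not pass (adjusted p = 0.116). The 15-week male arrays read 0.655, 0.743, 0.754, 0.772 and 0.829 and the 104-week male arrays 0.812, 0.937, 1 and 1.03, with 1 array in the overlap. The rise was 0.33 (SE 0.0842, 1.26-fold, adjusted p = 0.00196), and it was seen on 4 of 4 slides. Without any 1 of the 9 arrays it stayed past the threshold (adjusted p at most 0.017), but with the 75th percentile over all 677 miRNAs it was 0.27 and did not pass (adjusted p = 0.174). In females the 15-week arrays read 0.813, 0.816, 0.825, 0.847 and 0.867 and the 104-week arrays 0.728, 0.787, 0.815, 0.834 and 0.938, a difference of -0.03 (SE 0.0793, 95% interval -0.19 to 0.13). The male change exceeded the female change by 0.36 (SE 0.116, adjusted p = 0.0334), the 1 member of 4 to pass, and 11.3% of all miRNAs passed. Leaving out any of 7 of these 19 arrays took that adjusted p above the threshold, to at most 0.0927, with the value between 0.31 and 0.43. It also lost the test with the 75th percentile over all 677 miRNAs (0.24, adjusted p = 0.578) and when all 677 were tested (adjusted p = 0.077). In the test of the age by sex interaction over all 8 ages 0 of 4 members passed, and 27.7% of all miRNAs did; by unadjusted p below 0.05 miR-221-3p was the 1 (adjusted p = 0.0789), and it passed with slide as a fixed block (adjusted p = 0.0255).

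At 104 weeks miR-221-3p was 0.20 higher in males (SE 0.0842, adjusted p = 0.0803), and at 15 weeks it was 0.16 lower (-0.16, adjusted p = 0.265). The 104-week difference was larger, and passed, with the 75th percentile over miRNAs detected on all arrays (0.39, adjusted p = 0.00424) and after quantile normalization (0.39, adjusted p = 0.000188). The 2 probes of miR-221-3p gave the same sign in 8 of 12 comparisons, with a largest gap of 0.20. The patterns most like that of miR-221-3p were those of miR-532-3p (r = 0.84), miR-214-3p (0.82), let-7i-5p (0.80) and miR-199a-3p (0.80), and the least like were those of miR-375-3p (-0.70) and miR-194-5p (-0.68). miR-214 and miR-199a are known from fibroblasts and mesenchyme, and miR-194 from tubule epithelium.

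miR-222-3p, the seed partner of miR-221-3p, rose in old age. The 15-week male arrays read 0.0223, 0.0321, 0.0347 and 0.0357 with 1 array not detected, and the 104-week male arrays 0.081, 0.0814, 0.0849 and 0.105, all above them. The rise was 1.68 on the log2 scale (SE 0.409, 3.21-fold, adjusted p = 0.00108), and it was seen on 4 of 4 slides. Without any 1 of the 9 arrays it was between 1.51 and 1.78, and it passed in all 14 other settings, with values from 0.12 to 2.01 (adjusted p at most 0.0056). It was the 1 member called from 15 to 104 weeks in males, where 13.2% of all miRNAs were called. With miR-221-3p, 2 of 4 members passed there, and 23.8% of all miRNAs passed.

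In females the 15-week arrays read 0.0319, 0.0348, 0.0414, 0.0494 and 0.0614 and the 104-week arrays 0.0342, 0.0745, 0.0788, 0.107 and 0.108, so 4 of 5 old females lay above all the younger ones. That difference was 0.81 (SE 0.386, 1.76-fold, adjusted p = 0.182), and 0 of 4 members passed, with 10.9% of all miRNAs passing. The male and female changes were not shown to differ (0.87, 95% interval -0.26 to 1.99, adjusted p = 0.436). Over all ages miR-222-3p passed the age test in males (adjusted p = 0.0109) and did not in females (adjusted p = 0.0564). Over the other settings the adjusted p in females ran from 0.0360 to 0.520. Its group means were lowest in 15-week males, at 0.0252 ± 0.0145 (n = 5, with 1 undetected array at its deposited value), and highest at 104 weeks, at 0.0806 ± 0.0303 (n = 5) in females and 0.0881 ± 0.0116 (n = 4) in males. At 78 weeks males averaged 0.0725 ± 0.0343 (n = 5) and females 0.0436 ± 0.0124 (n = 5).

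The size of the miR-222-3p rise depended on how the scanner software sums probes. Each of miR-126a-3p, miR-221-3p and miR-222-3p has 2 probes, and the total gene signal adds only those probes the software detects. The total held both probes on all 74 arrays for miR-126a-3p and miR-221-3p. For miR-222-3p it held both on 24 arrays, 1 on 44 and none on the 6 where it was not detected. Such totals were common: of 311 miRNAs, 184 had a total below the sum of their probes on some array that detected them. All 4 of the 104-week male arrays and 4 of 5 of the 104-week female arrays summed both, against 0 of 5 of the 15-week male arrays and 2 of 5 of the 15-week female arrays.

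**Figure D4:**
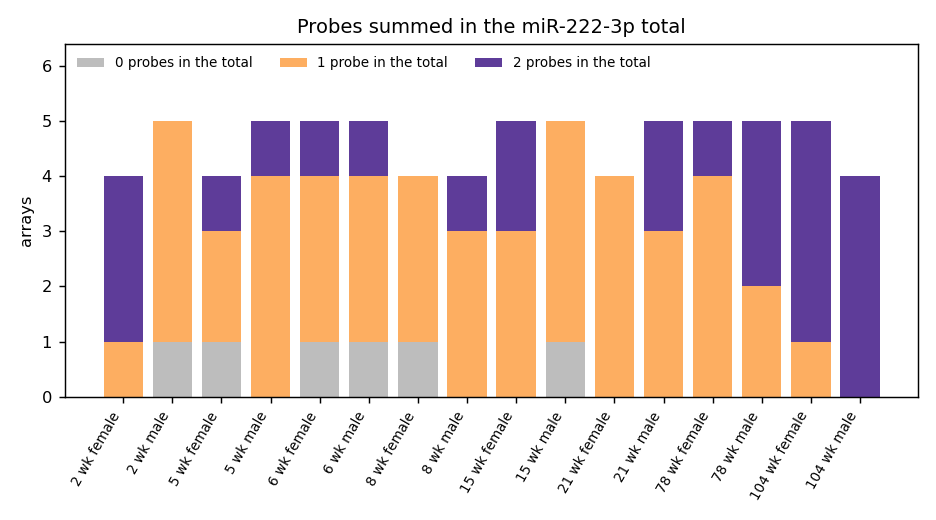
Number of arrays (y axis) in each group (x axis) on which the deposited total of miR-222-3p summed 0 (grey), 1 (orange) or 2 (purple) of its probes. The 4 arrays of 104-week males summed 2 probes, and in 15-week males 4 summed 1 and 1 summed 0.

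With every probe summed on every array, a setting chosen after seeing the data, the rise in males was 0.98 (SE 0.243, 1.97-fold, adjusted p = 0.00133) and was still called. The 15-week males then averaged 0.0452 ± 0.00889 (n = 5) and the 104-week males 0.0881 ± 0.0116 (n = 4), without overlap. The 2 probes taken alone gave 0.82 and 0.91. After normexp correction with an offset of 50, which draws dim values together, the rise was 0.12 and passed the test below the 1.5-fold threshold (adjusted p = 0.000134). In females every probe summed gave 0.53 (adjusted p = 0.127). In that setting the age test of miR-222-3p passed in both sexes (adjusted p = 0.0497 in females and 0.0381 in males), with a pair of ages past 1.5-fold in each. At 2 weeks, where all 4 females (0.0441 to 0.0688) lay above all 5 males in the deposited totals (-0.80, adjusted p = 0.248), the difference was -0.14 with every probe summed. From 2 to 8 weeks in females, where the deposited totals did not overlap either (-0.85, adjusted p = 0.14), it was -0.12.

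**Figure D5:**
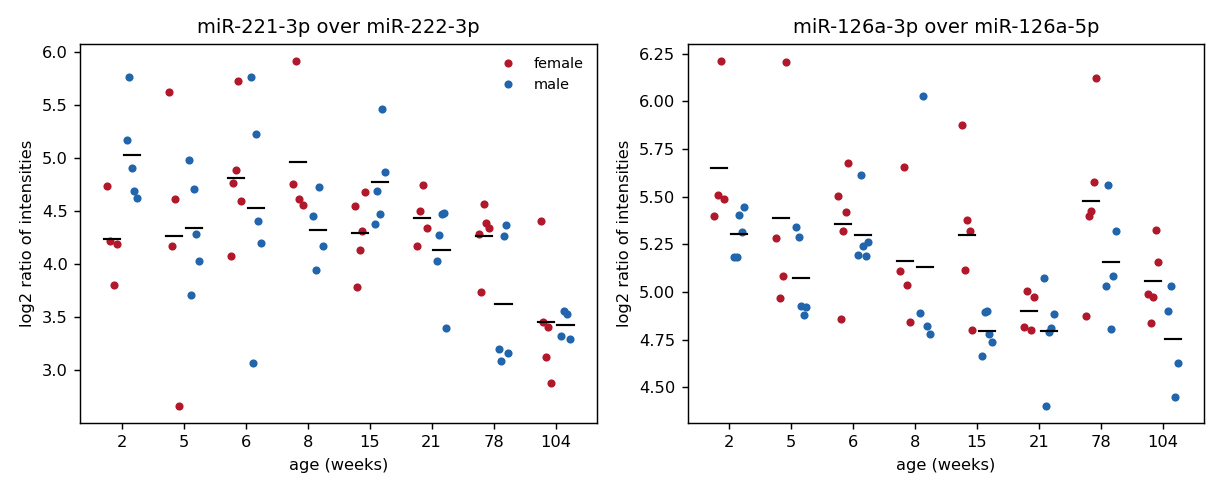
Log2 ratio of intensities (y axis) on each array by age (x axis, weeks) in females (red) and males (blue), with group means as short black lines, for miR-221-3p over miR-222-3p (left) and miR-126a-3p over miR-126a-5p (right). The left ratio was lowest at 104 weeks, where the means were 3.45 and 3.42.

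The ratio of miR-221-3p to miR-222-3p on an array was compared between groups because both arms carry the same seed. A ratio of intensities of different probes is no ratio of amounts, so only its changes were read. The log2 ratio averaged 4.78 ± 0.429 (n = 5) in 15-week males and 3.42 ± 0.137 (n = 4) in 104-week males, without overlap. In females it averaged 4.29 ± 0.352 (n = 5) and 3.45 ± 0.585 (n = 5), with overlap. The changes were -1.35 in males (exact two-sided permutation p = 0.0159, adjusted over 12 tests 0.143) and -0.84 in females (exact permutation p = 0.0317, adjusted 0.143). Of the 12 tests, 8 of sex and 4 of age, 0 passed after adjustment and 4 had an exact p below 0.05. The smallest possible p is 0.00794 with 5 arrays in each group, 0.0159 with 4 and 5, and 0.0286 with 4 in each. The male change was at the limit for its group sizes. At these limits a test could pass after adjustment over 12 tests only if others were also small, so 0 passing says little about the changes. With every probe summed the changes were -0.65 and -0.55.

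The seed partners were also compared array by array within groups. After removing group and slide means, the deviations of miR-221-3p and miR-222-3p on the 74 arrays correlated with r = 0.58, against a median of 0.10 over 25878 pairs of miRNAs and a 95th percentile of 0.54. Before removing slide means r was 0.32. The other pairs of members lay between -0.37 and 0.16 after removing slide means. The 2 arms of miR-126a gave -0.17, against 0.29 before slide means were removed. All arrays share the scaling, and these are descriptions. For miR-222-3p, these correlations and those over group means rest on the deposited totals, in which the number of probes summed differed between arrays. They were not computed with every probe summed. Over group means miR-221-3p and miR-222-3p had r = 0.19, and the patterns most like miR-222-3p were those of miR-27a-3p (0.75), miR-24-2-5p (0.73), miR-21-5p (0.71) and miR-146b-5p (0.67), with let-7d-5p (-0.64) and let-7a-5p (-0.56) the least like.

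A list of 31 other miRNA names known from vessels (among them the miR-17 to miR-92a family of growth miRNAs, the miR-23, miR-24 and miR-27 cluster, miR-34a and miR-21) had 36 arms detected of 63 on the array. From 2 to 8 weeks 14 of 36 fell and 4 rose in females, and 15 fell and 7 rose in males, where 31.8% of all miRNAs passed in females and 45% in males. The median differences were -0.18 and -0.23, against 0 over all 311 miRNAs in each sex. Those with the largest falls in females were miR-18a-5p (-1.70), miR-19a-3p (-1.68), miR-322-5p (-1.53) and miR-503-5p (-1.498), where miR-126a-3p had -0.40. In males miR-296-5p fell by 2.17, miR-18a-5p by 1.89, miR-503-5p by 1.70 and miR-214-3p by 1.23. miR-296-5p was detected on 13 of 74 arrays, so its value rests on the floor. The values of listed miRNAs here and below come from the deposited totals, in which the probes summed can differ between arrays.

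From 15 to 104 weeks 8 of the 36 vascular arms rose and 3 fell in males, with a median of 0.01, and 5 rose and 3 fell in females, with a median of -0.02. Of all miRNAs 23.8% passed in males and 10.9% in females. In males the largest rises were miR-132-3p (1.92), miR-34a-5p (1.39), miR-21-5p (1.30) and miR-503-5p (0.76), and in females miR-34a-5p (1.31) and miR-21-5p (0.64) rose while miR-23a-5p fell by 1.495. miR-34a is known as a target of p53 and miR-21 for its rise in kidney fibrosis. Between the sexes 3 of 36 were higher and 7 lower in males at 104 weeks, and 3 higher and 9 lower at 78 weeks, with 20.3% of all miRNAs passing at each age. The male and female changes from 15 to 104 weeks differed for 4 of 36 arms, a share near the 11.3% over all miRNAs. As male minus female change, 2 arms were positive (miR-21-5p, 0.66, and miR-214-3p, 0.61) and 2 negative (miR-218a-5p, -0.54, and miR-130a-3p, -0.36).

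Markers of other cell types moved over the same span in which miR-221-3p and miR-222-3p rose in males. From 15 to 104 weeks in males, 4 of 5 detected leukocyte arms (of miR-142, miR-150 and miR-223) rose and 0 fell, where 23.8% of all miRNAs passed. Their summed intensity ran from 2.87 to 3.54 at 15 weeks and from 5.72 to 7.91 at 104 weeks. miR-142-5p, the one with the largest rise, was detected on 10 of 74 arrays, so its fold rests on the floor. All 3 detected fibroblast and mesenchyme arms (miR-199a and miR-214) rose, with sums of 7.35 to 9.31 at 15 weeks and 10.9 to 13.3 at 104 weeks, and all 3 erythroid arms (miR-144 and miR-451) rose, with sums of 1.03 to 1.97 at 15 weeks and 2.53 to 4.46 at 104 weeks. miR-144-3p and miR-144-5p were detected on 5 and 14 arrays. miR-214-3p is on both the mesenchyme and the vascular list.

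Some tubule and epithelial arms fell over the same ages in males. Of 7 tubule arms 3 fell and 0 rose, with sums of 39.3 to 46.7 at 15 weeks and 30.1 to 34.4 at 104 weeks, and of 7 epithelial arms (the miR-200 family) 4 fell, with sums of 27.0 to 31.2 and 20.01 to 25.2. Of the 2 smooth muscle arms (miR-143 and miR-145) 0 passed, with sums of 8.62 to 10.6 and 8.90 to 11.4. Of the 2 striated muscle arms detected 1 fell, and of the 2 arms of the liver miRNA miR-122, 0 passed in males. On these lists the arms miR-204-3p, miR-141-5p, miR-200c-5p, miR-143-5p, miR-145-3p, miR-214-5p, miR-223-5p and miR-451-3p, with both arms of miR-1 and miR-133a, miR-133b-5p and miR-206-5p, were detected on 0 arrays. In females over the same ages, 0 of 3 mesenchyme and 0 of 7 tubule arms passed, while 2 of 5 leukocyte arms and 1 of 3 erythroid arms rose and 1 leukocyte arm fell, with 10.9% of all miRNAs passing (leukocyte sums of 2.82 to 3.26 and 3.49 to 3.77). The part of these cell types in the changes of miR-221-3p and miR-222-3p was not tested. Over the same ages in males the vascular miR-126a-3p had a difference of -0.15 (SE 0.0777, adjusted p = 0.189) and miR-126a-5p one of -0.10 (SE 0.224, adjusted p = 0.938).

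Marker lists also moved from 2 to 8 weeks, when miR-126a-3p fell. Of 7 tubule arms 5 rose in females and 6 in males, where 31.8% and 45% of all miRNAs passed, with sums of 28.2 to 31.5 and 33.2 to 41.6 in females and 22.0 to 25.0 and 41.7 to 43.8 in males. All 3 detected mesenchyme arms fell in each sex, with sums of 15.8 to 18.3 and 10.2 to 11.03 in females and 18.2 to 20.1 and 9.81 to 10.2 in males. Of 5 leukocyte arms 2 rose in each sex, and of 2 smooth muscle arms 0 passed. The part of these cell types in the fall of miR-126a-3p was not tested.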

How the data were processed

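RNA from kidneys of independent rats was hybridized by the authors to 74 one-colour Agilent rat miRNA arrays. They were read with Agilent Feature Extraction, version 10.7.3.1 in the header of a scanner file. The intensity values used, the deposited total gene signals, are sums over the detected probes of a miRNA, with undetected miRNAs at 0.1. Signals were scaled per array to the 75th percentile over the 311 miRNAs detected anywhere (81.2 to 283, median 156), floored at 0.0171 and put on the log2 scale; a change in that percentile between kidneys would shift every value. Arrays detected 190 to 264 miRNAs (median 232), 0 miRNA spots were saturated, and 0 pairs of arrays held identical values. The number of arrays limits the precision.

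Groups came from the sample titles. limma 3.58.1 (R 4.3.3) fitted 16 group means, with contrasts for sex at each age and for 2 to 8 and 15 to 104 weeks, and F tests for the interaction and for age within each sex. Ratios used exact permutation (SciPy 1.17.1). Named miRNAs are the members, the 4 most and 2 least like each, and at most 4 of a list per comparison by fold. Members and lists were chosen with earlier results of these data known. The fit was tested on simulated data. Alternatives covered floor, scaling, background correction, filters, slide, scan day, replicate number, the methods' tests and each array left out. The value table of the series was used only to check which array each column holds: 5 of 74 columns held the sample named, and which naming is right was not tested. Sequences and positions are from RefSeq GRCr8.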

Additional observations from a re-analysis of the deposited data

Results flagged for a closer look

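In 7 of 80 groups of 4 or 5 arrays (4 members and 1 ratio over 16 groups) the highest or lowest array stood apart by Dixon's criterion, which by chance marks about 5% of groups. The gap to the nearest array, as a share of the group's range, was 0.794 for miR-126a-3p in 6-week females (replicate 4 at 11.6, against a geometric mean of 15.3 in the others) and 0.743 in 78-week females (replicate 5 at 15.2, against 14.3). For miR-126a-5p it was 0.745 in 2-week males (replicate 2 at 0.536, against 0.412), 0.857 in 8-week females (replicate 2 at 0.251, against 0.468) and 0.921 in 8-week males (replicate 3 at 0.231, against 0.530). For miR-221-3p it was 0.901 in 21-week females (replicate 4 at 0.780, against 0.737), and for the log2 ratio of miR-221-3p to miR-222-3p 0.855 in 8-week females, where miR-222-3p was not detected on replicate 2. The 6-week female replicate 4, the 8-week female replicate 2 and the 8-week male replicate 3 were all on slide 1. On that slide miR-126a-3p, miR-126a-5p and miR-222-3p averaged below their group means, so these flags are not independent of the slide. Without the 8-week male replicate 3, miR-126a-5p passed the age test in males (adjusted p = 0.00588, against 0.187 with it).

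The change of miR-221-3p from 15 to 104 weeks differed between the sexes by 0.36 on the log2 scale, tested as a difference of differences (adjusted p = 0.0334).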

How the results depend on the processing

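Of 936 comparisons of a member's value with another setting, 878 kept their side of the threshold, 25 lost the test, 33 gained it and 0 called values changed sign. Over 2044 such comparisons, those with 1 array left out included, a difference that had not passed changed sign in 86, among them miR-126a-3p between the sexes at 78 and 104 weeks. Of 32 sex tests 1 passed. That count was 2 with the 75th percentile over miRNAs detected on all arrays, quantile normalization, normexp or slide as a random block, 4 with slide as a fixed block, 5 with scan day as a block, and 0 with the percentile over all miRNAs, all miRNAs tested, the methods' t-test, or a limma fit of the groups compared alone. Calls over all 311 miRNAs, which also need the 1.5-fold difference, moved with the setting too. For sex at 78 weeks they went from 21 to 29 with slide as a fixed block and to 4 with normexp. Age effects in females (2) went to 0, and in males (3) to 1, with the percentile over all miRNAs or ages of 15 to 104 weeks alone. In males the count was also 1 with ages of 2 to 8 weeks alone. In females miR-222-3p gained the age test with the percentile over miRNAs detected on all arrays, normexp, or all miRNAs tested. The same held with a 50% detection filter, scan day as a block, slide as a random block, and every probe summed. In males miR-126a-5p gained it with slide as a fixed block. The interaction (0) was passed by 1 member with quantile normalization, normexp, all miRNAs or slide as a random block, and by 2 with slide or scan day as a fixed block. The changes from 2 to 8 weeks (2) went to 1 with the floor set before scaling and to 0 with the percentile over all miRNAs or the groups alone. miR-221-3p gained that test in females with the percentile over miRNAs detected on all arrays and in males with quantile normalization. From 15 to 104 weeks in males, miR-126a-3p gained the test with slide or scan day as a fixed block. The changes from 15 to 104 weeks (2) went to 1, and the difference between the sexes in that change (1) to 0, with the percentile over all miRNAs. That difference was also 0 with all miRNAs tested. The causes were not tested.

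With 1 array left out at a time the counts ranged from 0 to 2 for sex, 2 to 3 and 3 to 4 for age in females and males, 0 to 1 for the interaction, 1 to 2 for 2 to 8 weeks, 2 to 2 for 15 to 104 weeks, 0 to 1 for the difference and 0 to 0 for the ratio. For the ratio, groups this small leave an exact test little room to pass, so its count says little. The setting with every probe summed was chosen after seeing the data. Replicate numbers did not pair the samples: arrays of 1 age with the same number in the other sex had a mean correlation of deviations of 0.0255 (28 pairs), against -0.00397 for other numbers (143 pairs). With the number as a replicate block, changes from 2 to 8 weeks went from 2 to 1 (miR-126a-3p in males, -0.18, adjusted p = 0.0645), and no other member call changed. Signal near background limits miR-222-3p.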
